A study of Mus musculus with 24 samples.

Results

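The 10 genes described here encode subunits of the transcription factor AP-1 and related immediate early factors: Fos, Fosb, Fosl1, Fosl2, Jun, Junb, Jund, Egr1, Egr2 and Atf3. They were chosen with earlier results of these data known and were taken by symbol from the 54232 gene identifiers of the count tables. Each of the 10 was found and passed the filter on low counts in every comparison. AP-1 is a dimer. Proteins of the Jun family (Jun, Junb, Jund) pair with one another or with proteins of the Fos family (Fos, Fosb, Fosl1, Fosl2). Atf3 can also pair with Jun proteins. Most of these genes are immediate early genes: they are switched on within minutes of a signal through MAP kinases, without new protein synthesis, and their RNAs are short-lived. Egr1 and Egr2 are zinc finger factors induced by the same signals. In bone, Fos is required for osteoclasts to form, and Fosl1, Fosl2, Junb and Jund also act in osteoblasts, the bone-forming cells.

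RNA was measured in cells from bone marrow cultures of female C57BL/6 mice aged 6 to 8 weeks, either wild type or carrying the knock-in Sh3bp2KI/KI (CBM in the sample titles), a model of the jaw disease cherubism. Sh3bp2 encodes an adaptor protein of immune receptor signalling. The cultures had grown for 7 days in MEM-alpha medium with serum when they were sorted by flow cytometry, which took CD45+Sca1+ cells as hematopoietic and CD45-Sca1+ cells as mesenchymal. Each of the 4 groups has 6 libraries of ribosomal RNA-depleted total RNA. The labels do not say whether the replicates of a group were separate mice or cultures. The file names carry a different mouse-like name for each library of a group (such as WT1 and WT3), but nothing states what it means, so p-values measure the spread between these libraries, which may be technical. They name neither the mutation in the knock-in allele nor a treatment that would induce these genes. Sorting itself takes time in which immediate early genes can respond, and no source used here gives its handling times.

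Totals ran from 9875390 to 15826711 counts per library, and the 10 genes together took 0.0468% to 0.104% of them. Levels are given as CPM, counts scaled to library size by TMM (a correction for library composition), over 6 libraries a group as mean ± SD. Ptprc, which encodes CD45, averaged 793 ± 71.3 CPM in wild type hematopoietic libraries and 2.98 ± 1.86 in wild type mesenchymal ones. Ly6a, which encodes the Sca1 antigen, averaged 9.99 to 12.1 CPM in the 4 groups. Sh3bp2 itself averaged 211.9 ± 25.6 CPM in hematopoietic cells of wild type and 233 ± 36.5 of the knock-in (edgeR adjusted p = 0.448), and the counts cannot show the mutation. From stromal marker genes, the share of stromal RNA in the hematopoietic libraries was estimated at 6.55% to 19.9% in wild type and 5.05% to 23.3% in knock-in. The deposited file names carry a prefix, C1 or C2, with 3 libraries of each group in each (replicates 1 to 3 and 4 to 6). No label says what the prefix means, and it was a term in every fit.

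On the mouse build GRCm38, Fos lies at chr12:85473890-85477273, Fosb at chr7:19302696-19310051, Fosl1 at chr19:5447547-5455946 and Fosl2 at chr5:32135801-32157842. Jun lies at chr4:95049034-95052222 and is a gene of 1 exon, while Junb and Jund share chromosome 8, at chr8:84974484-84978718 and chr8:70698949-70700616. Egr2 lies at chr10:67535475-67542188 and Atf3 at chr1:191170296-191218039. Several members overlap a gene on the opposite strand: Jun shares 232 exonic bases with Junos, Junb 173 with Prdx2, Fosl1 1163 with Ccdc85b and Jund 877 with Gm11175. The libraries were stranded, but no source used here gives the strand setting of the counting, which leaves the values of these pairs uncertain to that extent.

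RefSeq promoter windows on GRCm38.p6 were found for 8 of the 10 members, all but Fosl1 and Egr1. The 250 bases before the annotated start are shown for Fos, Junb and Fosl2, the members that rose in knock-in hematopoietic cells, and for Jun, a close relative of Junb that was not called there. They are followed by 1 of the 5 windows of Egr2, which was higher in mesenchymal cells. The windows shown for Fosl2 and Egr2 lie inside the genes as placed above, since the RefSeq starts used for them lie downstream of those gene starts. Capitals mark the CArG box, to which serum response factor binds, the TATA box, the half-site of the cyclic AMP response element on either strand and the variant of that element known from Jun.

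Fos, chr12:85473640-85473889, plus strand: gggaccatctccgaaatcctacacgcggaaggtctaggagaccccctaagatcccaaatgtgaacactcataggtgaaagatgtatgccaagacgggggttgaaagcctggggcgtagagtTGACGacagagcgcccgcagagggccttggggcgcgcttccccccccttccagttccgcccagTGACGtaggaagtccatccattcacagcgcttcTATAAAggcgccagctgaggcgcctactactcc

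Junb, chr8:84978749-84978998, minus strand: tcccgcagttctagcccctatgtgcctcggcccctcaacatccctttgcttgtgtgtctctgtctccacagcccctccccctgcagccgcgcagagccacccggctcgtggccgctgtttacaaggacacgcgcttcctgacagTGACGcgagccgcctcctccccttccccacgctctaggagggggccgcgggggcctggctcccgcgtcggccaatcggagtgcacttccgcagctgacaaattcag

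Fosl2, chr5:32136222-32136471, plus strand: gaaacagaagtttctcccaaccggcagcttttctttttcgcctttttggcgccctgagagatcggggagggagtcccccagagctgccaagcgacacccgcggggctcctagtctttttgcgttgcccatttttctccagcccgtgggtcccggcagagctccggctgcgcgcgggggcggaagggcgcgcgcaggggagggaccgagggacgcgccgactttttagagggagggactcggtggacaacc

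Jun, chr4:95052223-95052472, minus strand: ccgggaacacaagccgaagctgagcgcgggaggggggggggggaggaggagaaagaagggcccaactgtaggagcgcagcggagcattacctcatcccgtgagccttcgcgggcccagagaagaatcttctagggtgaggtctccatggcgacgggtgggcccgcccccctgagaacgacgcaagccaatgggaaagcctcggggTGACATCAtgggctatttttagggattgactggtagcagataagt

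Egr2, chr10:67537619-67537868, plus strand: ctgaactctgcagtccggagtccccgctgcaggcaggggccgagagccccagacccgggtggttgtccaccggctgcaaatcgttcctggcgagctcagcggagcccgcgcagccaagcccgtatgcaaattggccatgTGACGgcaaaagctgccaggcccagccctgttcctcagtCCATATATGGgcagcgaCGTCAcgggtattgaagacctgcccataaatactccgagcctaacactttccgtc

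The Fos window held TATAAA at 33 to 28 bases before the start, which 12.4% of all 32851 windows of this length hold. It also held TGACG, the half-site of the cyclic AMP response element, at 129 to 125 and at 66 to 62 bases before the start. Junb held TGACG at 106 to 102 bases before the start. The windows of Fosb and Atf3 and the Egr2 window shown also held this half-site, in Atf3 as CGTCA on the other strand. Fosb, Atf3 and Egr2 were not called higher in knock-in hematopoietic cells, so the half-site was not limited to members that rose there. On either strand, 17.8% of all windows hold TGACG. This motif was added after the sequences were seen, and it forms part of the full element TGACGTCA, which 1.55% of windows hold and none of the members' windows does. Jun held TGACATCA at 45 to 38 bases before the start, against 2.93% of windows. The Egr2 window shown held the CArG box CCATATATGG at 72 to 63, against 1.47% of windows for any CArG box. That share is per window, and Egr2 has 5. Its window at chr10:67537316-67537565 held another CArG box, CCTTTTTTGG, and the one at chr10:67535249-67535498 held no motif searched. The Fosl2 window matched no motif searched, which also included the AP-1 site TGACTCA (4.46% of windows), the EGR site GCGTGGGCG (0.536%) and the ETS core CCGGAA (3952 of the windows), each on both strands. A match describes letters in this window and not a bound site.

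Within hematopoietic cells, the knock-in was compared with wild type. Fos, Fosl2 and Junb rose, and no member fell: 3 of the 10 were called higher and 0 lower at an adjusted p under 0.05 by edgeR. Of all 14030 genes tested there, 15.9% were called, 9.01% higher and 6.89% lower. The median log2 fold change was 0.16 over the 10 members and -0.00 over all tested genes. The same-numbered libraries of the 2 genotypes deviated together in this population, though replicates 4 and 5 did not match their own number best. No label states that a number marks a pair. With the replicate number as a block, 6 members were called: the same 3, Jund higher, and Fosb and Atf3 lower, where 23.6% of tested genes were called.

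Fos, the founding member of its family, ranged from 86.1 to 118 CPM with a median of 97.6 in wild type and from 115 to 219 with a median of 194 in the knock-in. Of the knock-in libraries, 5 lay above every wild type library, and replicate 5, at 115 CPM, lay just under the highest wild type value. The rise was 1.87-fold, with a log2 difference of 0.91 (SE 0.14, edgeR adjusted p = 0.000821), and the knock-in was higher in 6 of 6 same-numbered pairs.

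Fosl2, which encodes the Fos family protein FRA2, ranged from 57.5 to 182 CPM with a median of 114 in wild type and from 294 to 446 with a median of 369 in the knock-in. The genotypes did not overlap. The wild type libraries fell apart among themselves: replicates 1, 4 and 6 held 57.5 to 77.6 CPM and replicates 2, 3 and 5 held 151 to 182. Fosl2 rose 3.23-fold, the highest fold of the 10 members (1.69 on the log2 scale, SE 0.28, edgeR adjusted p = 0.0018).

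Fosb and Fosl1, the other members of the family, were low in hematopoietic cells. Fosb ranged from 2.84 to 8.996 CPM (38 to 122 counts) in wild type and from 0.386 to 4.72 CPM (5 to 55 counts) in the knock-in, and 4 knock-in libraries lay below every wild type one. Its log2 fold change was -1.35 (SE 0.47, edgeR adjusted p = 0.0739). With the replicate block Fosb fell, at a log2 fold change of -1.49 (edgeR adjusted p = 0.00127), and it was lower in 6 of 6 pairs. Fosl1, which encodes FRA1, had 8 to 45 counts a library and overlapped between genotypes (0.56 on the log2 scale, SE 0.35, edgeR adjusted p = 0.319). The estimated stromal RNA alone would give 2.98 CPM of Fosl1 in the wild type libraries, more than the 1.57 CPM measured there.

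**Figure D1:**
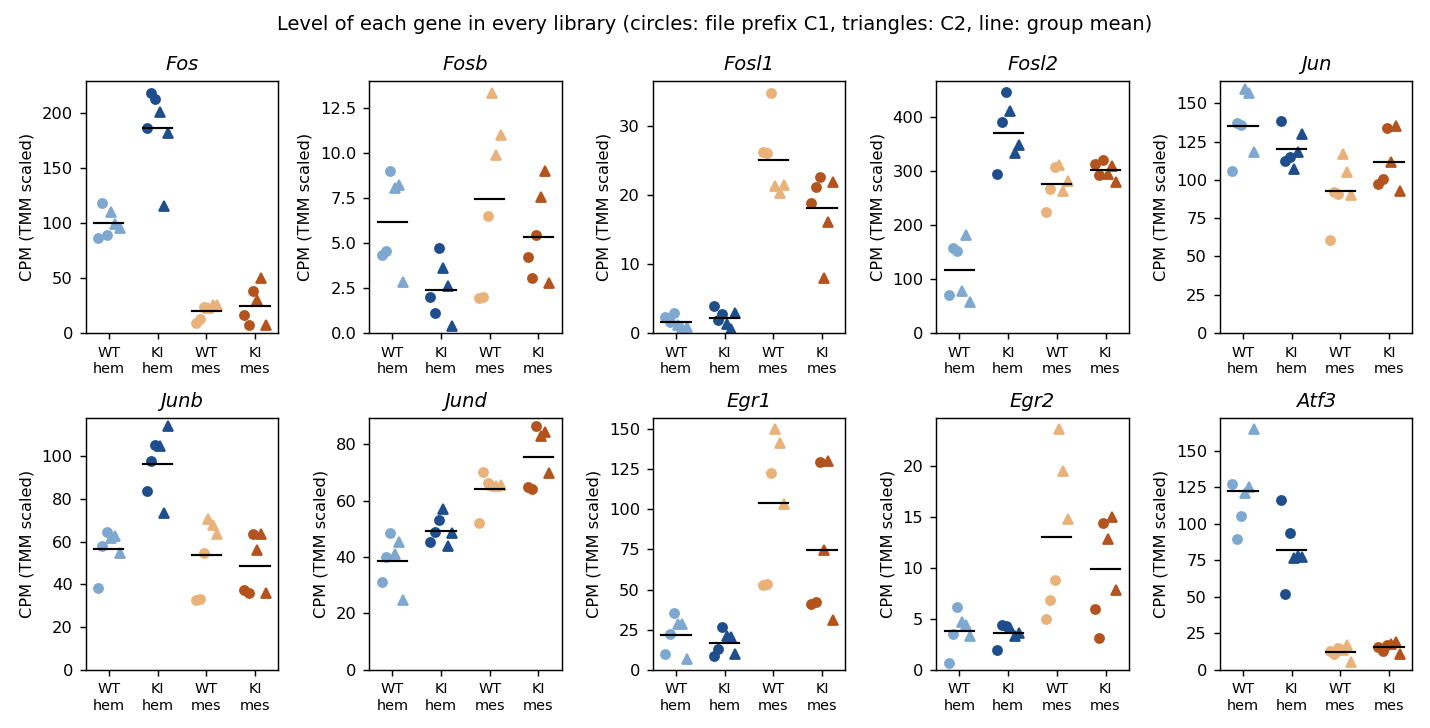
CPM of each of the 10 genes in every library, by genotype (WT, wild type; KI, Sh3bp2KI/KI) and population (hem, hematopoietic; mes, mesenchymal), with each panel on its own linear scale. Circles are libraries with file name prefix C1, triangles those with C2, and black lines are means of 6 libraries; Fosl2 and Junb are the members whose hematopoietic genotypes do not overlap.

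In the Jun family, Junb rose. Junb, which can both activate and restrain AP-1 targets, ranged from 38.5 to 64.5 CPM with a median of 59.7 in wild type and from 73.4 to 114 with a median of 101 in the knock-in. The groups did not overlap, which for the members was true of Fosl2 and Junb and for all tested genes of 7.8%, with 4.61% higher. The rise was 1.72-fold (0.78 on the log2 scale, SE 0.13, edgeR adjusted p = 0.00165). Prdx2, the peroxiredoxin gene that overlaps Junb on the opposite strand, also rose, at a log2 difference of 0.53 (SE 0.12, edgeR adjusted p = 0.00902).

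Jun, the family's strongest activator, ranged from 106 to 159.6 CPM in wild type and from 107 to 139 CPM in the knock-in, with all knock-in libraries inside the wild type range. Its log2 fold change was -0.16 (SE 0.10, edgeR adjusted p = 0.362). Jund, which is expressed more steadily than its relatives in many cells, ranged from 24.6 to 48.5 CPM in wild type and from 43.9 to 56.9 CPM in the knock-in. Jund had a log2 difference of 0.38 (SE 0.15, edgeR adjusted p = 0.108), and with the replicate block it rose by 0.40 on the log2 scale (edgeR adjusted p = 0.0366).

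Atf3, a stress-induced partner of the Jun proteins, ranged from 89.2 to 165 CPM with a median of 123 in wild type and from 51.7 to 116 with a median of 77.5 in the knock-in. It was lower in the knock-in in 6 of 6 pairs, and 4 knock-in libraries lay below the wild type range. The log2 fold change was -0.55 (SE 0.18, edgeR adjusted p = 0.0574), and with the replicate block Atf3 fell, at -0.57 (edgeR adjusted p = 0.00704). Egr1 ranged from 6.65 to 35.6 CPM in wild type and from 8.28 to 26.6 CPM in the knock-in. In both genotypes replicates 1 and 6 were the lowest, at 6.65 to 10.0 CPM. Egr2 stayed at or under 6.16 CPM. Neither Egr gene was called, with log2 fold changes of -0.38 (SE 0.42) and -0.05 (SE 0.37).

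**Figure D2:**
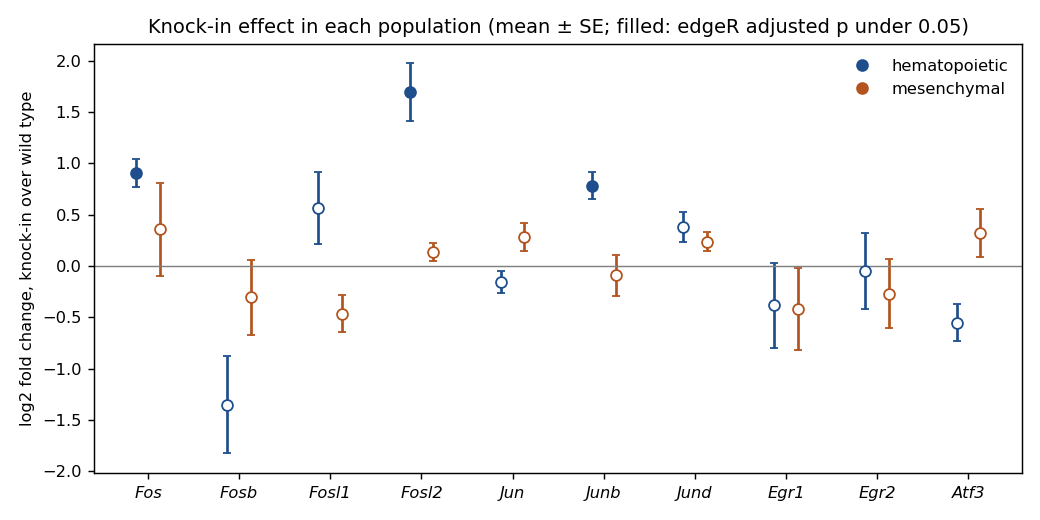
Log2 fold change of knock-in over wild type (points, with bars of 1 SE from edgeR) for each of the 10 genes in hematopoietic and mesenchymal cells. Filled points have an adjusted p under 0.05, which holds for Fos, Fosl2 and Junb in hematopoietic cells and for no member in mesenchymal cells.

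Within the libraries with prefix C1, the log2 fold changes of Fos, Fosl2 and Junb were 1.12, 1.61 and 0.87, each called, where 4.81% of genes were called. Within prefix C2 they were 0.71, 1.79 and 0.72, with adjusted p of 0.137, 0.0992 and 0.0958 by edgeR, where 1.55% of genes were called. Atf3 had -0.27 within C1 and fell by 0.82 within C2 (edgeR adjusted p = 0.0378), and Fosb had -1.18 and -1.51. DESeq2 called both of these lower beside the 3 that rose, where it called 20.1% of genes. In 1 fit of all 24 libraries Fos kept its fold change of 0.91 but was not called (edgeR adjusted p = 0.0747).

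Osteoclast genes moved with Fosl2. Of 10 osteoclast markers 9 rose in knock-in hematopoietic cells and 0 fell, with a median log2 fold change of 2.69. None of the 10 was at 0 in every library of a group. Their summed level was 174 to 1869 CPM in wild type and 2019 to 5253 CPM in the knock-in. In wild type, replicates 1, 4 and 6, which were low in Fosl2, had sums of 174 to 429 CPM, and replicates 2, 3 and 5 had sums of 854 to 1869 CPM. The part of osteoclast content in the rise of Fosl2 was not tested. In bulk RNA, fewer cells of a type and less RNA per cell cannot be told apart. Macrophage markers summed to 12762 to 20636 CPM in wild type and 16878 to 24986 CPM in the knock-in, and leukocyte markers to 4498 to 5246 and 4368 to 5059 CPM. Of 11 macrophage markers tested, 2 rose and 4 fell. Lyz2, the lysozyme gene that makes up most of that sum, rose from 9681 ± 2373 to 15071 ± 3012 CPM. The mannose receptor gene Mrc1 fell from 2302 ± 352 to 825 ± 180.1 CPM, the chemokine receptor gene Ccr2 from 186 ± 55.8 to 59.8 ± 26.2 CPM and the Fc receptor gene Fcgr1 from 113 ± 24.7 to 47.2 ± 20.4 CPM. The part of these macrophage differences in the members' values was not tested.

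**Figure D3:**
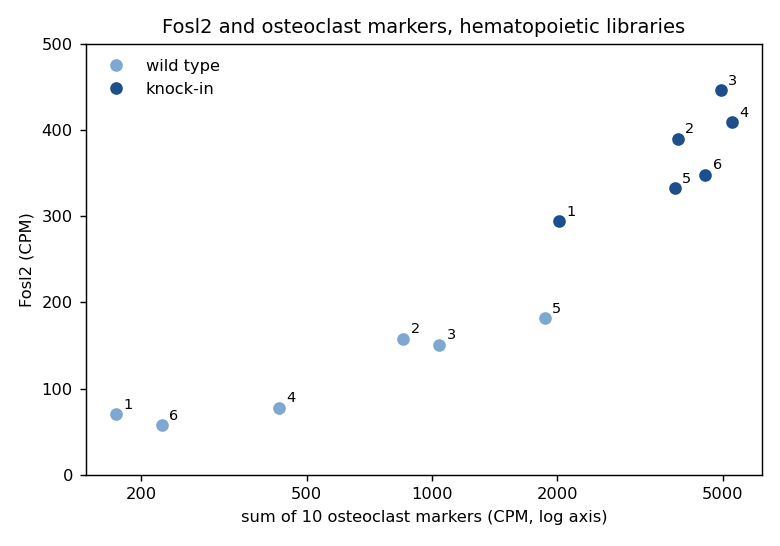
Fosl2 level (CPM) against the summed CPM of 10 osteoclast markers (log axis) in the 12 hematopoietic libraries; numbers are replicates. The knock-in libraries lie at or above 294 CPM of Fosl2 and 2019 CPM of marker sum, and wild type replicates 1, 4 and 6 lie lowest on both axes.

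After the estimated stromal RNA was subtracted from each hematopoietic library, the log2 fold changes of Fos, Fosl2 and Junb were 0.91, 2.02 and 0.86 and each was still called. Fosl1 then had too few counts to be tested. In wild type libraries the estimated stromal RNA would amount to 57.1% of the measured Egr1 level, 41.2% of Egr2, 28.3% of Fosl2, 2.38% of Fos and 1.21% of Atf3. For Fosl1 the same estimate gives 189%, which cannot hold, so it was too high for at least that gene.

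The make-up of each family was compared per length, as CPM per kb of exon. In hematopoietic cells the summed Fos family was 56.1 ± 8.59 CPM per kb in wild type and 119 ± 20.1 in the knock-in, and the summed Jun family 90.2 ± 14.7 and 109 ± 8.29. Fos made up 76.1% ± 7.88 of the Fos family in wild type and 66.2% ± 4.38 in the knock-in, while Fosl2 made up 20.7% ± 7.46 and 32.6% ± 4.64. In the Jun family, Jun made up 47.3% ± 2.45 in wild type and 34.7% ± 4.27 in the knock-in, and these ranges did not overlap. The share of Junb was 27.3% ± 2.37 and 38.2% ± 3.49, again without overlap. Shares of a family depend on one another, so these are not separate changes. The level of Jun itself was not called (log2 fold change -0.16, edgeR adjusted p = 0.362).

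**Figure D4:**
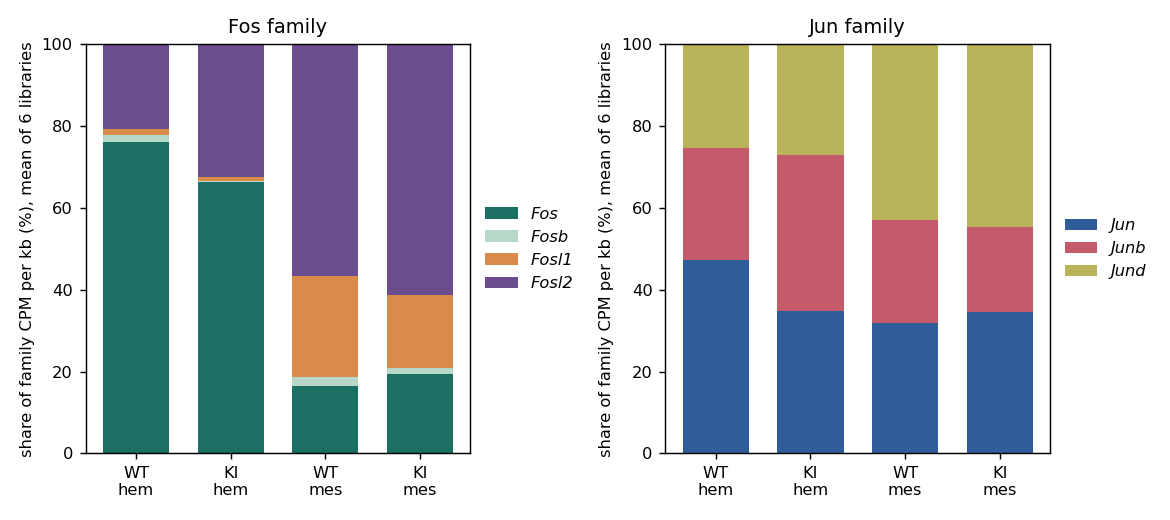
Mean share of each gene in the summed CPM per kb of its family, over 6 libraries a group (WT, wild type; KI, Sh3bp2KI/KI; hem, hematopoietic; mes, mesenchymal). Fos is the main Fos family RNA in hematopoietic cells (76.1% and 66.2%) and Fosl2 in mesenchymal cells (56.6% and 61.4%).

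Other genes of the pathway were taken from lists chosen with earlier results known, so their counts are descriptions. Of 12 other AP-1 family factors tested in hematopoietic cells, 2 rose and 2 fell. Jdp2, a dimer partner of Jun that osteoclasts need, was among those that rose, from 53.8 ± 20.6 to 286 ± 65.6 CPM. Maf fell from 719 ± 84.5 to 398 ± 67.8 CPM and Batf3, a dendritic cell factor, from 2.36 ± 0.78 to 0.672 ± 0.417 CPM. Of 21 other immediate early genes, 3 rose and 2 fell: the kinase gene Sgk1 (1.23 on the log2 scale, SE 0.21), Gadd45b (0.86, SE 0.23) and Klf10 (0.63, SE 0.12) rose, and the mRNA decay factor Zfp36 was among those that fell (-0.36, SE 0.12). The lists' medians were -0.08 and 0.04.

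Signalling genes upstream of AP-1 were counted next. Of 18 MAP kinases and their kinases, 1 rose, the p38 kinase activator Map2k3 (0.62 on the log2 scale, SE 0.13), and 2 fell, Rps6ka1 and Rps6ka3. Of 16 feedback inhibitors of MAP kinases, 6 rose and 2 fell. Dusp4, a phosphatase gene induced by ERK signalling, rose from 10.3 ± 5.28 to 53.8 ± 11.5 CPM, and Dusp9 (2.06) and Spry1 (1.13, both log2 fold changes) rose with it. Dusp2 rose from 1.80 ± 0.731 to 3.99 ± 1.204 CPM. Of 12 factors that bind immediate early promoters, Mef2d rose (0.35), and Mef2c (-1.25) and Creb1 (-0.23) fell. Serum response factor, Srf, was at 26.8 ± 3.68 and 26.7 ± 2.46 CPM.

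Among 17 tested genes reported as AP-1 targets, 5 rose and 2 fell, with a median log2 fold change of 0.36. Mmp9, a collagenase, rose from 123 ± 131 to 910 ± 391 CPM and Acp5, which encodes the osteoclast enzyme TRAP, from 113 ± 111.1 to 777 ± 209 CPM; both also stand among the osteoclast markers. Nfatc1, the master factor of osteoclasts and a target of Fos, rose from 251 ± 66.2 to 613 ± 172 CPM. The cell cycle gene Ccnd1 fell from 203 ± 35.2 to 86.7 ± 21.2 CPM. Of 11 heat shock genes tested, 2 rose and 0 fell.

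In mesenchymal cells none of the 10 members passed the test, where 7.27% of 13867 tested genes were called by edgeR, 3.44% higher and 3.83% lower. No member's genotypes stood apart either, as 4.14% of tested genes did, 2.08% of them lower. DESeq2 also called 0 members, where it called 1664 of the 13867 genes. By edgeR 2 members, Fosl1 and Jund, had an unadjusted p under 0.05, as did 3152 of the 13867 genes. A share of 2 in 10 is near that background and shows nothing particular to the members. The members' median log2 fold change was 0.02, against 0.00 over all tested genes. Fosl2 ranged from 223 to 311 CPM in wild type and from 279 to 320 CPM in the knock-in (0.14 on the log2 scale, SE 0.08, edgeR adjusted p = 0.371). Fosl1 ranged from 20.3 to 34.7 and from 7.94 to 22.6 CPM (-0.46, SE 0.18, edgeR adjusted p = 0.14). The knock-in value of replicate 4 was the lowest of all. Without knock-in replicate 6, Fosl1 was called lower, at -0.61 (edgeR adjusted p = 0.0322). That was the extreme of 12 fits with 1 library left out, which ran to -0.33 (edgeR adjusted p up to 0.255). Atf3 was at 5.55 to 17.1 CPM in wild type and 10.5 to 19.3 CPM in the knock-in (0.32, SE 0.23, edgeR adjusted p = 0.461). It was higher in the knock-in in 6 of 6 same-numbered libraries, though no label states that these are pairs.

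Fos, Fosb, Junb, Egr1 and Egr2 varied among the mesenchymal libraries of each genotype. Egr1 in wild type was 52.7 and 53.4 CPM in replicates 1 and 2, and 104 to 150 CPM (149.95 at most) in replicates 3 to 6. In the knock-in it was 31.2 to 42.3 CPM in replicates 1, 2 and 6 and 74.5 to 130.1 CPM in replicates 3 to 5. Fos followed the same libraries, with 8.74 and 13.2 CPM against 23.1 to 25.6 in wild type, and 6.86 to 16.8 against 30.3 to 49.8 in the knock-in. Junb was at 32.7 to 37.3 CPM in these 5 libraries and at 54.8 to 70.5 in the other 7.

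The same 5 libraries were also lower in stromal markers. The sums of 20 such genes were 27711 to 35777 CPM in them and 44053 to 60522 CPM in the others, and those of 8 endothelial markers 57.6 to 124 and 7.02 to 44.97 CPM. The part of cell make-up in these low values was not tested. Without those 5 libraries, chosen after the values were seen, 2 members were called in mesenchymal cells, where 4.66% of genes were called: Fos was higher in the knock-in (0.71, SE 0.15, edgeR adjusted p = 0.0314) and so was Jund (0.37, SE 0.07, edgeR adjusted p = 0.0138). These rest on 4 wild type and 3 knock-in libraries. The 5 left out held the lowest Fos values of each genotype and the lowest Jund values of the knock-in. The choice of libraries was thus tied to the levels tested, and these calls are no evidence of a genotype effect. With all libraries kept, Fos had 0.36 (SE 0.46, edgeR adjusted p = 0.706) and Jund 0.24 (SE 0.10, edgeR adjusted p = 0.157).

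**Figure D5:**
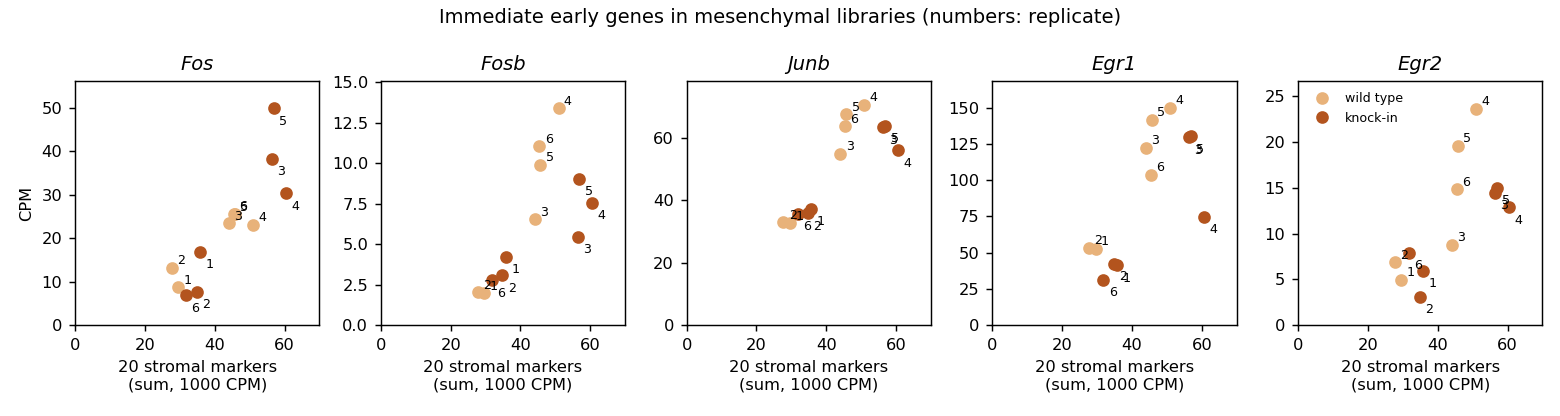
CPM of Fos, Fosb, Junb, Egr1 and Egr2 in the 12 mesenchymal libraries against the summed CPM of 20 stromal markers (axis in kCPM); numbers are replicates. Wild type replicates 1 and 2 and knock-in replicates 1, 2 and 6 lie under 40000 CPM and hold the lowest Fos, Junb and Egr1 values in both genotypes.

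Around the members, 1 of 10 other AP-1 family factors rose in knock-in mesenchymal cells (Mafg, 0.42) and 1 fell (Maf, -0.42, both log2 fold changes). Of 22 other immediate early genes, Ier3 (0.86) and Ier5 (0.65) rose and the neuronal activity gene Arc fell (-1.86). No MAP kinase gene of 19 was called by edgeR. Of 15 feedback inhibitors 4 rose and 1 fell: the phosphatase genes Dusp1 (0.91), Dusp8 (0.62) and Dusp10 (0.56) were among those that rose, and Spry1 fell (-0.62). Mef2c fell (-1.07), and of 18 AP-1 targets 4 rose and 2 fell. Mmp9 and Acp5 were among these, from 0.624 ± 0.346 to 18.4 ± 9.53 CPM and from 1.04 ± 0.795 to 12.02 ± 9.37 CPM. Leukocyte RNA was estimated at 0.424% ± 0.137 of wild type and 0.642% ± 0.371 of knock-in mesenchymal libraries. Osteoclast markers summed to 75.7 to 114 CPM in wild type and 95.6 to 254 CPM in knock-in mesenchymal libraries, and 3 of 5 tested rose. The part of osteoclast RNA in these rises was not tested.

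Whether the knock-in effect differed between populations was tested by the interaction, the effect in mesenchymal minus that in hematopoietic cells. Of the 10 members 2 were called, both lower, and 7.28% of 15389 tested genes were called, 2.92% higher and 4.36% lower. DESeq2 called 9.92% of genes, and edgeR with the replicate block 8.65%. Fosl2 had an interaction of -1.55 (SE 0.29, edgeR adjusted p = 0.00166), from a rise of 1.69 in hematopoietic cells beside 0.14 in mesenchymal cells. Junb had -0.89 (SE 0.26, edgeR adjusted p = 0.0396), from 0.78 beside -0.09. The call of Junb was lost without a filter on low counts (edgeR adjusted p = 0.11) and without any of 16 of the 24 libraries, left out one at a time (adjusted p up to 0.0774). For Fos the interaction was -0.58 (SE 0.49, edgeR adjusted p = 0.594), so a difference between the populations was not shown. Atf3 had 0.88 (SE 0.30, edgeR adjusted p = 0.0838). Beyond the members, Jdp2 had -2.14 (SE 0.28, edgeR adjusted p = 5.35e-05).

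Next, mesenchymal cells were compared with hematopoietic cells within each genotype. In wild type 8 of 10 members differed, 5 higher and 3 lower in mesenchymal cells, where 73.5% of 15389 tested genes did, 35.4% higher and 38.0% lower. In the knock-in it was 8 of 10, also 5 and 3, where 73.0% did, 33.9% higher and 39.1% lower. A share of 8 in 10 is near that background. The 2 comparisons come from 1 fit, in which the libraries count as independent. The file names give the same mouse-like label to a hematopoietic and a mesenchymal library in 4 wild type and 5 knock-in cases, often under different replicate numbers and at times under different prefixes, and no label of the samples says that these are 1 animal. With that name as a term, added after seeing the data, 8 members were called in each genotype and 2 in the interaction, the same counts as without it. The share of all genes called in that fit is not given here, so these counts show nothing particular to the members.

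Higher in mesenchymal cells were Fosl1, Egr1, Egr2 and Jund, in both genotypes. Fosl1 was at 0.783 to 2.84 CPM in wild type hematopoietic and 20.3 to 34.7 CPM in wild type mesenchymal cells, without overlap, a 16.7-fold difference (log2 4.06, SE 0.29, edgeR adjusted p = 8.78e-12). In the knock-in the difference was 8.34-fold (3.06, SE 0.27, edgeR adjusted p = 5.8e-10). Egr1 was at 52.7 CPM or more in wild type mesenchymal libraries and at 35.6 CPM or less in hematopoietic ones, 4.66-fold (2.22, SE 0.43, edgeR adjusted p = 7.84e-05), and 4.53-fold in the knock-in. Egr2 was 3.19-fold and 2.64-fold higher, with 1 mesenchymal library of each genotype inside the hematopoietic range. Jund was 1.67-fold and 1.53-fold higher without overlap, a property that 51.8% and 51.3% of all tested genes shared.

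Lower in mesenchymal cells were Fos and Atf3. Atf3 was at 89.2 to 165 CPM in wild type hematopoietic and 5.55 to 17.1 CPM in mesenchymal libraries, 9.81-fold lower (log2 -3.29, SE 0.23, edgeR adjusted p = 8.83e-12), and 5.32-fold lower in the knock-in. Fos was 5.08-fold lower in wild type (-2.34, SE 0.36, edgeR adjusted p = 4.37e-06) and 7.57-fold lower in the knock-in (-2.92, SE 0.37). Neither gene's populations overlapped in either genotype.

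The remaining 4 members were called in 1 genotype each. Fosl2 was 2.38-fold higher in wild type mesenchymal cells (log2 1.25, SE 0.21, edgeR adjusted p = 1.3e-05) and had -0.30 (SE 0.21, edgeR adjusted p = 0.197) in the knock-in. Junb was lower in mesenchymal cells of the knock-in (-0.99, SE 0.19, edgeR adjusted p = 5.19e-05) and had -0.10 (SE 0.19) in wild type. Jun was lower in wild type (-0.55, SE 0.13, edgeR adjusted p = 0.000481) and had -0.11 (SE 0.13) in the knock-in. Fosb had 1.11 (SE 0.48, edgeR adjusted p = 0.0444) in the knock-in and 0.15 (SE 0.46) in wild type. That call of Fosb was lost within each file name prefix, with adjusted p of 0.279 and 0.053 by edgeR. Within both prefixes Fosl1, Egr1 and Jund stayed higher and Fos and Atf3 lower in mesenchymal cells.

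Of 22 other immediate early genes 14 were higher and 5 lower in mesenchymal cells, in each genotype. Cyr61 and Ctgf, matrix-associated targets of serum response factor and YAP, were at 32.7 ± 21.3 and 76.1 ± 38.0 CPM in wild type hematopoietic and at 423 ± 65.9 and 907 ± 159 CPM in mesenchymal cells. Egr3, a further Egr factor, was at 2.35 ± 1.61 and 20.3 ± 6.50 CPM. Srf was higher as well, at 58.0 ± 5.43 CPM in mesenchymal cells (log2 1.12, SE 0.09). Of 12 heat shock genes, a list for stress during handling, 11 were higher in wild type and 8 in knock-in mesenchymal cells, and 0 were lower. Heat shock sums were 816 to 1204 CPM in wild type hematopoietic and 1192 to 1479.8 CPM in wild type mesenchymal libraries. The part of handling in the population differences was not tested.

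Ranked per length, Atf3 was the highest member in wild type hematopoietic cells, at 56.7 ± 11.8 CPM per kb, followed by Jun at 42.5 ± 6.59 and Fos at 42.4 ± 5.27, whose ranges overlap. Junb (24.6 ± 4.16) and Jund (23.1 ± 5.40) stood apart below Fos and overlapped each other, and Fosl2 (11.98 ± 5.51) and Egr1 (4.85 ± 2.55) followed. In knock-in hematopoietic cells Fos led with 79.1 ± 15.9, and Junb, Fosl2, Atf3 and Jun followed within 37.7 to 41.9 CPM per kb with overlapping ranges. In mesenchymal cells Jund led, at 38.5 ± 3.71 in wild type and 45.2 ± 6.15 in the knock-in, ahead of Jun (29.1 ± 5.90 and 35.1 ± 5.84) and Fosl2 (28.4 ± 3.36 and 31.1 ± 1.55), each overlapping its neighbour. In each group but the wild type hematopoietic one Fosb was lowest, and there Fosl1 was.

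Likeness between genes was measured as Pearson's r of log2 CPM over the 24 libraries, after group and prefix means were removed, among 9439 genes. The values share library and depth, and they are a description. The members most alike were Fos and Junb (0.82), Jund and Egr1 (0.79) and Fosl2 and Jund (0.77). Among the 8 members at 10 CPM or more, Atf3 had values of -0.27 to 0.26 with the others and Fosl1 had values of -0.070 to 0.22. Over all genes, Fosl2 was most like Cd109 (0.95), Gm20056 (0.95) and Fam102a (0.93). Fos was most like Cog1 and Polr3b (0.86 each) and Nubp2 (0.85), and Jun most like Iqgap1 (0.79), Plin2 (0.76) and 1810055G02Rik (0.75).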

How the data were processed

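RNA-seq of 24 libraries was used, 6 in each of 4 groups taken from the labels. The deposited values are raw read counts per gene, whole numbers that the authors did not normalize. The submitters' processing notes name FastQC 0.11.7, MultiQC, HTSeq 0.9.1, DESeq2 1.20.0 and the build GRCm38; the aligner and the strand setting are not given in those or the other sources. Genes were named by their identifiers, of which 54079 of 54232 matched a symbol.

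Counts were tested with edgeR 4.0.16 (R 4.3.3) by its quasi-likelihood test, after filterByExpr (minimum count 10, minimum total 15) and TMM scaling. Benjamini-Hochberg adjustment ran over all tested genes, with a threshold of 0.05. Genotypes were fitted within each population, and population differences and the interaction in 1 fit of 24 libraries, each with the file name prefix as a term. The script was tested on simulated data. Totals of 9875390 to 15826711 counts set the precision, and genes under about 10 counts a library are weakly measured. No libraries agreed within sampling noise (chi-square per degree of freedom 7.23 to 65.0).

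Stromal RNA in hematopoietic libraries, and leukocyte RNA in mesenchymal ones, was estimated from marker genes of at least 10 CPM. Same-numbered hematopoietic libraries of the genotypes correlated in their deviations from group and prefix means in 6 of 6 pairs (r from 0.19 to 0.58). For this reason the replicate block is given beside those results. However, replicates 4 and 5 did not match their own number best, and no label states a pairing. Alternatives were DESeq2 1.42.0, RLE scaling, other filters, no prefix term, each prefix alone, the replicate block, each library left out and the other population's RNA subtracted. A further 2, leaving out 5 mesenchymal libraries and an animal label from the file names as a term, were chosen after seeing the data.

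The members and gene lists were chosen with earlier results of these data known. All members are named in each comparison. From each other list, up to 4 called genes of a genotype comparison and up to 3 of a population comparison were named, by the size of the log2 fold change among genes of at least 1 CPM. Genes given beyond that rule, among them the overlapping antisense genes, were chosen after their values were seen. Of the listed genes, 1 is not reported here.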

Additional observations from a re-analysis of the deposited data

Results flagged for a closer look

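Fos in knock-in hematopoietic replicate 5, at 115 CPM, lay far below the other 5 libraries of its group, which held 182 to 219 CPM. Jund in wild type mesenchymal replicate 1, at 52.2 CPM, lay far below the other 5, which held 65.2 to 70.3 CPM. These 2 came from 40 groups examined, and chance gives about 1 in 20. The knock-in effect on Fosl2 differed between the populations, with an interaction of -1.55 on the log2 scale (edgeR adjusted p = 0.00166). That on Junb differed too, at -0.89 (edgeR adjusted p = 0.0396). The Junb call was lost without a filter on low counts. It was also lost when any of most of the single libraries was left out (edgeR adjusted p up to 0.0774). Within either file name prefix alone, neither the Junb nor the Fosl2 interaction was called.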

How the results depend on the processing

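Genes called in the hematopoietic genotype comparison numbered 2231, and 672 within prefix C1 and 218 within C2. Of the members, 5 were called by DESeq2, 1 within C2 and 6 with the replicate block, against 3. In mesenchymal cells 1008 genes were called, and 1664 by DESeq2, 391 within C1, 76 within C2 and 669 without the 5 libraries low in stromal markers, when 2 members were called against 0. The interaction called 1121 genes, and 180 within C1, 138 within C2 and 671 without those 5. It called 2 members, and 1 without a filter, 1 without the prefix term and 0 within either prefix. With single libraries left out, the hematopoietic comparison called 1745 to 2206 genes and 3 to 4 members, and the mesenchymal one 646 to 1036 genes and 0 to 1 members. The population differences called 11135 to 11476 genes and 8 members in wild type and 11078 to 11406 genes and 7 to 8 members in the knock-in. The interaction called 937 to 1166 genes and 1 to 3 members.

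The replicate block gave 1258 genes in mesenchymal cells and 1331 for the interaction, where Atf3 was called (0.93, edgeR adjusted p = 0.0404). Between mesenchymal genotypes same-numbered libraries correlated at over 0.1 in 5 of 6 pairs (0.0064 to 0.54), and 4 of 6 matched their own number best, a hint of pairing from the data that missed the rule of every pair. Between populations 5 of 6 knock-in and 2 of 6 wild type pairs were over 0.1.

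Members that were not called changed sign as follows, and the cause was not tested. In hematopoietic cells Egr2 was 0.085 within C1, 0.051 with the replicate block, 0.12 after subtraction and -0.27 to 0.23 with libraries left out. In mesenchymal cells, within C1, Fosb was 0.27, Junb 0.17 and Egr2 0.18, and Junb was -0.26 to 0.032 with libraries left out. In the wild type population difference Fosb was -0.73 within C1 and -0.054 to 0.37 with libraries left out, and Junb was 0.17 within C2 and 0.17 without the 5. In the knock-in one Jun was -0.18 to 0.025 with libraries left out and 0.10 without the 5. For the interaction Egr1 was 0.42 and Egr2 0.16 within C1, Egr1 -0.34 to 0.22 with libraries left out, 0.10 with the animal label and 0.20 without the 5, and Jund 0.019 without the 5.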

Other observations

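Junos, the antisense gene that shares 232 exonic bases with Jun, was at 15.1 to 33.2 CPM in wild type and 57.5 to 154 CPM in knock-in hematopoietic libraries, without overlap (2.09 on the log2 scale, SE 0.21, edgeR adjusted p = 6.63e-05). Jun on the other strand had -0.16 there. In mesenchymal cells Junos had 0.13 (edgeR adjusted p = 0.696), and its interaction was -1.997 (edgeR adjusted p = 0.000147). Junos was chosen after its values were seen.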
